A study of Mus musculus with 24 samples.

Results

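The nuclear genome encodes most subunits of the mitochondrial respiratory chain and ATP synthase, and 84 of the 40750 genes in the deposited expression table belong to this set. They were chosen by gene name: protein-coding genes whose symbol starts with Nduf followed by a, b, c, s or v and a digit (complex I), the 4 Sdh genes (complex II), symbols starting with Uqcr (complex III), Cox4 to Cox8 genes with a letter (complex IV) and symbols starting with Atp5 (ATP synthase). The rule itself used no expression value, but it was set with earlier results of these data known. Of the 84, 81 reached 1 RPKM (reads normalised to exon length and library size) in at least 3 of 24 libraries and were tested among 13721 genes. Cox8b, Cox8c and Cox7b2 did not. The name rule also took in 3 genes that are not core structural subunits, Atp5s, Atp5sl and Cox7a2l, and it put Ndufa4 among the Nduf genes although its protein is now assigned to complex IV, where it is counted here.

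The respiratory chain passes electrons from NADH (complex I) and succinate (complex II) through complex III to oxygen at complex IV, pumping protons across the inner mitochondrial membrane, and ATP synthase uses the proton gradient to make ATP. Its complexes combine subunits from nuclear DNA with a small number from mitochondrial DNA. The proximal tubule of the kidney is packed with mitochondria and depends on oxidative ATP production for sodium and solute reabsorption, which makes it vulnerable to ischemia.

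Kidneys came from male mice of mixed background, aged 8 to 10 weeks, with the genotype Kim1-GCE+/-; EGFPL10a+/- in every group, sham included. In this design tamoxifen, given 6 h before and 24 h after surgery, switches on EGFP-tagged ribosomal protein L10a in cells that express Kim1 (Havcr1), a gene of injured proximal tubule. Injured kidneys were taken 2, 7 or 14 days after both renal pedicles were clamped for 20 min, and sham-operated kidneys had the same surgery without clamping. From each kidney, ribosomes were pulled down with an antibody against GFP (translating ribosome affinity purification), giving a bound fraction, and the remainder gave an unbound fraction that stands for total kidney, with 3 biological replicates in each of the 8 groups.

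Because the sham group did not have the injury that drives Kim1, the tag was checked first through Havcr1 itself. Havcr1 stood at 1.51, 1.49 and 5.61 RPKM in sham bound libraries, 50.5, 113 and 211 at day 2, 131, 132 and 248 at day 7, and 53.6, 33.7 and 21.7 at day 14. In unbound RNA it was 4.32, 3.93 and 24.1 RPKM in sham, 84.5, 151 and 143 at day 2, 38.1, 54.9 and 125 at day 7, and 18.4, 20.6 and 34.3 at day 14. Havcr1 was thus no higher in sham bound RNA than in sham unbound RNA. The sham bound libraries, against which the bound days are compared, had little of the driving gene. In total kidney it was low in sham replicates 1 and 2. Sham unbound replicate 3, at 24.1 RPKM, stood above day 14 unbound replicates 1 and 2 (18.4 and 20.6). The 12 proximal tubule markers listed summed to 15193 to 28079 RPKM in day 7 bound RNA, against 7206 to 13689 in sham bound RNA, and to 18137 to 31655 in sham unbound RNA. Most of the day 7 bound sum was Kap, at 24707, 16917 and 12309 RPKM. In sham bound RNA Kap had 6091, 4206 and 2579 RPKM, less than the other 11 markers summed to in each library. Without Kap the direction of the sum turned round. The other 11 markers summed to 2884 to 3518 RPKM in day 7 bound and 4627 to 7679 in sham bound RNA. In sham unbound RNA they summed to 4592 to 5549. Miox and Ass1 carried most of this turn. Miox had 2151, 2158 and 1725 RPKM at day 7, against 5489, 5824 and 3120 in sham bound RNA. Ass1 had 243, 307 and 264 against 1042, 839 and 634. The remaining markers went both ways, with Slc5a2 at 22.7, 25.4 and 22.5 against 16.2, 21.9 and 13.3. Lrp2 had 25.7, 26.7 and 16.1 against 40.3, 62.3 and 48.8. The 6 principal cell markers summed to 107 to 177 RPKM in day 7 bound libraries (Avpr2 at 0), against 201 to 1626 in sham bound libraries, where replicate 3 had the highest sum, and to 81.1 to 121 in sham unbound libraries. The 5 podocyte markers summed to 27.7 to 39.5 RPKM in day 7 bound and 61.8 to 183 RPKM in sham bound libraries. Day 14 replicate 3 stood apart in both fractions, with 7 macrophage markers summing to 1721 RPKM in bound and 1750 in unbound RNA, and with a correlation of 0.901 to the mean of the other bound libraries of its group. The part of these cell types in the results was not tested, and in bulk RNA fewer cells of a type cannot be told apart from less RNA per cell. Library depth, inferred from the spacing of low RPKM values, was 15.72 to 24.65 megareads.

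The subunits differ greatly in size, and size turned out to run alongside their changes, so the 4 shortest messages that were higher at both day 7 and day 14 are shown first. Each coding sequence is from the GENCODE M21 annotation of GRCm38, with the start and stop codons in capitals. Uqcr11 (chr10:80402997-80406830, minus strand) and Uqcr10 (chr11:4701973-4704342, minus strand) encode small subunits of complex III, Cox7c (chr13:86044816-86046904, minus strand) a small subunit of complex IV, and Ndufa1 (chrX:37187588-37191163, minus strand) a small accessory subunit of complex I. These coding sequences hold 171, 195, 192 and 213 bases, in that order.
Uqcr11 coding sequence: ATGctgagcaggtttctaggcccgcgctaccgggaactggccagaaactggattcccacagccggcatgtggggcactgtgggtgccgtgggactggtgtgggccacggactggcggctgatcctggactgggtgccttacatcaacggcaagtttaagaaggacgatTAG
Uqcr10 coding sequence: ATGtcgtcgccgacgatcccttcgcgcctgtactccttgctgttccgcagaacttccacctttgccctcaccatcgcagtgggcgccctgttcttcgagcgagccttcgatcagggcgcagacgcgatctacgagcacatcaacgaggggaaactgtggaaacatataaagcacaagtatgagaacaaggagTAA
Cox7c coding sequence: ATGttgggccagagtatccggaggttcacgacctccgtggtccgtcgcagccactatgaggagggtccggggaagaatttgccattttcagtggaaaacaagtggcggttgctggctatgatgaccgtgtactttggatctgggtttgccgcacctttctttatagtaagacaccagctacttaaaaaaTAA
Ndufa1 coding sequence: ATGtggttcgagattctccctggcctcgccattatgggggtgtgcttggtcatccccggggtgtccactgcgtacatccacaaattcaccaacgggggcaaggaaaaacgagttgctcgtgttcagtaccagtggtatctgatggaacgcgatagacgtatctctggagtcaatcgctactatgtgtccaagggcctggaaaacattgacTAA
At the other end of the range stood Sdha with 1995 and Ndufs1 with 2184 coding bases.

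Against sham, bound RNA from injured kidneys showed both directions within the respiratory chain: most small subunits rose by day 7 and stayed higher at day 14, while a few large catalytic and core subunits fell at every time. With limma's moderated test on log2 (RPKM + 0.5) and Benjamini-Hochberg adjustment over all tested genes, calls were made where the adjusted p was under 0.05. At day 2, 2 of 81 members were higher and 12 lower, where 19.8% of all tested genes were called, 13.3% higher and 6.48% lower. At day 7, 43 were higher and 8 lower (22.7% of all genes were called, 15.2% higher and 7.55% lower), and at day 14, 35 were higher and 6 lower (13.3% of all genes were called, 8.71% higher and 4.58% lower). The median log2 fold of the members was 0.24 at day 2, 1.02 at day 7 and 0.86 at day 14, beside 0.16, 0.13 and 0.18 for all tested genes. Members called higher at both day 7 and day 14 numbered 31, which is 72.1% of the day 7 calls and 88.6% of the day 14 calls, but these comparisons share their sham libraries.

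These counts moved with single libraries. At day 7, calls came to 20 higher and 4 lower without sham bound replicate 1, 19 and 4 without sham bound replicate 2, 26 and 7 without day 7 replicate 1, and 26 and 6 without day 7 replicate 2. At day 14 they came to 8 and 3 without sham bound replicate 1, 11 and 5 without sham bound replicate 2, 9 and 4 without day 14 replicate 1, and 9 and 5 without day 14 replicate 2. Without day 14 replicate 3, the library rich in macrophage markers, 52 members were higher and 6 lower at day 14. At day 2 the split was 17 higher and 12 lower without day 2 replicate 1, 1 and 6 without replicate 2, and 1 and 8 without replicate 3. When only the 6 libraries of a comparison entered the fit, day 7 had 35 higher and 6 lower, while day 2 and day 14 had 0 calls in either direction.

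**Figure D1:**
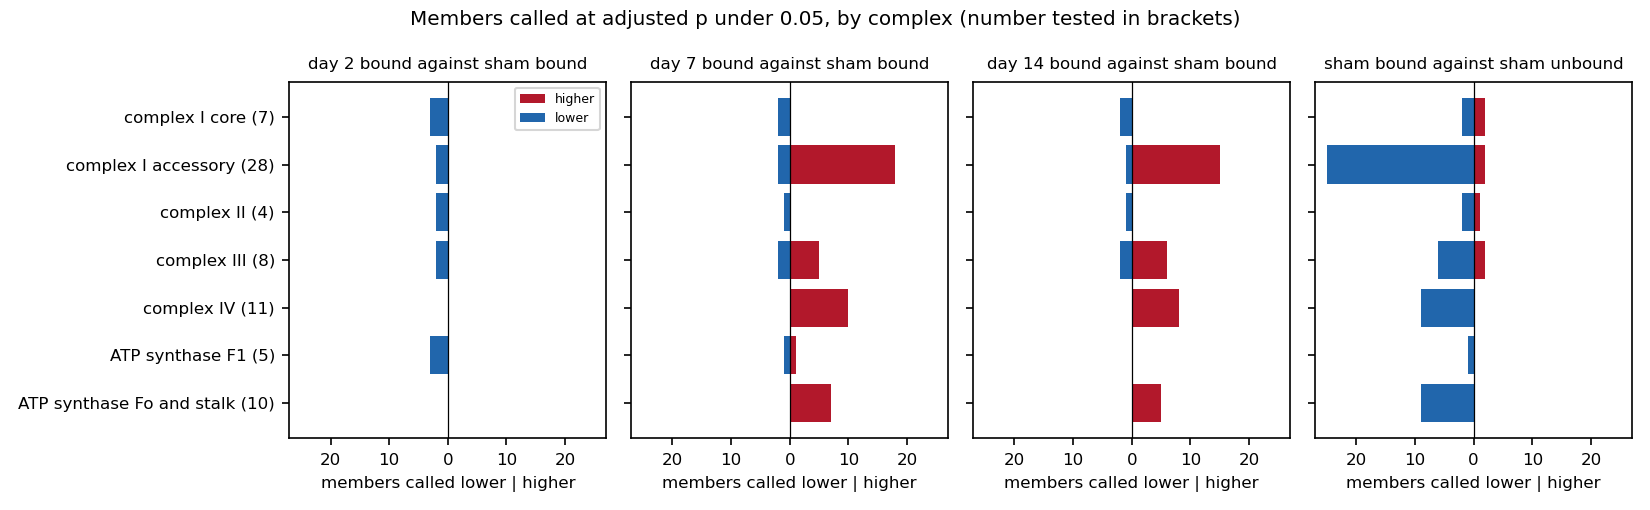
Number of members called higher (red, right) or lower (blue, left) in 4 comparisons, by complex, with the number tested in brackets. Complex IV had 10 of 11 members higher at day 7 and none lower, while the complex I core and complex II had no member higher against sham at any day.

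The largest fall was that of Sdha, the flavoprotein of complex II that oxidises succinate. Sdha stood at 988, 897 and 775 RPKM in sham bound RNA, at 526, 159 and 89.5 at day 2, at 179, 194 and 194 at day 7, and at 192, 210 and 247 at day 14. Every injured bound library was below every sham bound library, and day 2 had the widest spread. The log2 fold was -2.17 ± 0.38 (SE) at day 2, -2.22 ± 0.38 at day 7 and -2.03 ± 0.38 at day 14, with limma adjusted p of 0.000467, 0.000586 and 0.00265. In unbound RNA Sdha was 183, 178 and 269 RPKM in sham and 112 to 160 in injured kidneys, so the injured bound libraries other than day 2 replicate 1 came near the unbound level and the sham bound libraries stood far above it.

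The other 5 members that fell at all 3 days were Ndufs1 and Ndufv1 of the complex I core, which carry electrons from NADH through iron-sulfur clusters and flavin, Uqcrc1 and Uqcrc2, the large core proteins of complex III, and Ndufa9, a large accessory subunit of complex I. Ndufs1 was 93.6, 69.8 and 96.4 RPKM in sham bound RNA, 48.0, 21 and 16 at day 2, 26.3, 25.3 and 22.8 at day 7, and 28.6, 29.9 and 37.8 at day 14. Its log2 fold at day 7 was -1.77 ± 0.27 (limma adjusted p = 0.000218), and the groups did not overlap. Ndufv1 stood at 282, 266 and 230 RPKM in day 7 bound RNA, against 768, 690 and 518 in sham bound RNA, a log2 fold of -1.33 ± 0.26 (limma adjusted p = 0.00142). Uqcrc2 stood at 164, 179 and 175 RPKM at day 7, against 610, 467 and 384 in sham bound RNA, and fell by 1.47 ± 0.30 on the log2 scale (limma adjusted p = 0.00218). Uqcrc1, with 653, 592 and 695 RPKM at day 7 and 1577, 1421 and 1138 in sham bound RNA, fell by 1.08 ± 0.31, and Ndufa9, with 356, 325 and 326 against 849, 744 and 525, fell by 1.04 ± 0.29. All 6 genes had non-overlapping groups at day 7, which adds no support, since they were picked for being called lower. At day 7, Ndufa9 lost its call without sham bound replicate 1 (-0.90) or 2 (-0.99), and Uqcrc1 without sham bound replicate 1 (-0.98), sham bound replicate 2 (-1.05) or day 7 replicate 2 (-1.02).

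ATP synthase split along the same line. Of the 5 tested F1 subunits, which form the catalytic head, Atp5a1 (alpha), Atp5b (beta, which holds the catalytic sites) and Atp5c1 (gamma, the rotor shaft) fell at day 2, with log2 folds of -1.06 ± 0.22, -0.87 ± 0.23 and -0.78 ± 0.23 (limma adjusted p of 0.00236, 0.0113 and 0.0212). Atp5a1 stood at 707, 459 and 463 RPKM at day 2, against 1061, 1150 and 1127 in sham bound RNA. By day 7 Atp5a1 was still called lower (-0.71 ± 0.22, limma adjusted p = 0.0264) while Atp5b (-0.48 ± 0.23) and Atp5c1 (-0.29 ± 0.23) were not called. Atp5e, the small epsilon subunit of the same head, had 555, 556 and 454 RPKM at day 7, against 137, 161 and 289 in sham bound RNA, and rose by 1.48 ± 0.44 on the log2 scale (limma adjusted p = 0.0202). Of the 10 tested genes of the membrane sector and peripheral stalk, 7 rose at day 7 and none fell, with Atp5j2 at 546, 574 and 496 RPKM against 152, 153 and 268 in sham bound RNA (1.54 ± 0.36, limma adjusted p = 0.00463). Atp5f1, the stalk subunit b, was not called (0.06 ± 0.16). The day 7 calls of Atp5a1 and Atp5e were lost without sham bound replicate 1 or 2 or day 7 replicate 1 or 2, and that of Atp5a1 also without day 7 replicate 3. The day 2 call of Atp5c1 was lost without sham bound replicate 1 or 2 or day 2 replicate 2 or 3, and that of Atp5b without day 2 replicate 2.

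**Figure D2:**
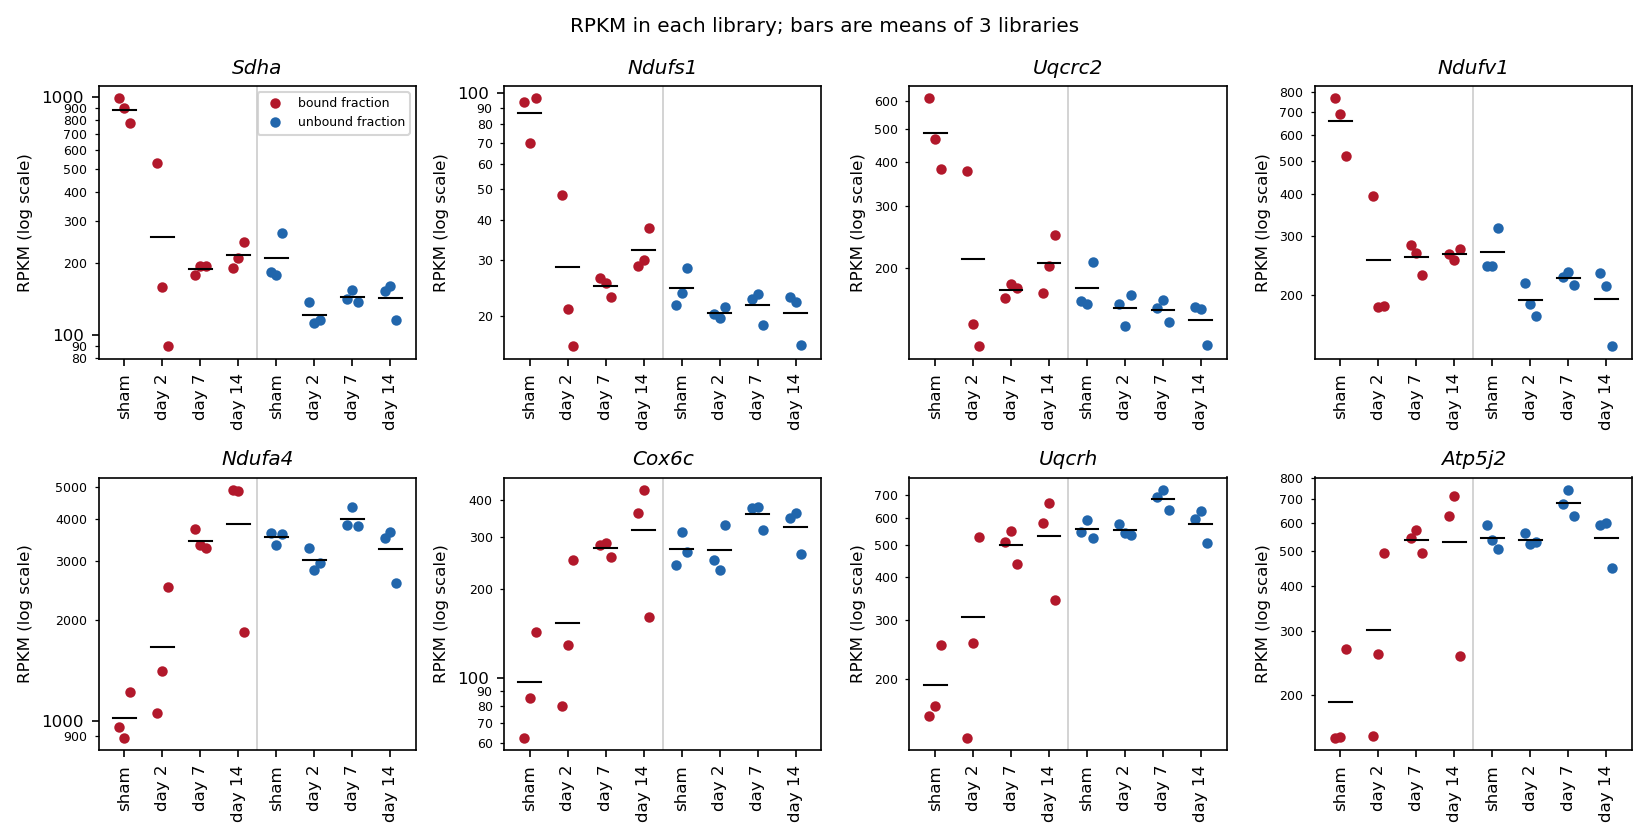
RPKM (log scale) of 8 genes in every library, with the bound fraction in red on the left, the unbound fraction in blue on the right, and bars at the means of 3 libraries. The top genes are highest in sham bound RNA, and the bottom genes are low in sham bound RNA and spread widely at day 2 and day 14, where Ndufa4 spans 1834 to 4894 RPKM.

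Complex IV, cytochrome c oxidase, moved most uniformly: 10 of its 11 tested subunits rose at day 7 and 8 at day 14, and none fell. Of all genes, 15.2% were higher at day 7 and 8.71% at day 14. The median log2 fold of the complex was 1.51 at day 7. With the coding length trend removed, only Ndufa4 and Cox6a1 of its subunits were still called higher at day 7. Ndufa4 had 3732, 3340 and 3291 RPKM at day 7, against 954, 888 and 1218 in sham bound RNA, a rise of 1.77 ± 0.34 on the log2 scale (limma adjusted p = 0.00147). At day 14 Ndufa4 stood at 4894, 4865 and 1834 RPKM (1.8 ± 0.34, limma adjusted p = 0.00308), replicate 3 being well under the others. Cox6c had 281, 286 and 257 RPKM at day 7, against 62.4, 85.3 and 143 in sham bound RNA (1.58 ± 0.37, limma adjusted p = 0.00472). Cox4i1, the ubiquitous form of subunit 4, had 1628, 1523 and 1333 RPKM at day 7 and 572, 677 and 706 RPKM in sham bound RNA (1.20 ± 0.27, limma adjusted p = 0.00373). Sham bound replicate 3 was the highest of its group for all 3 of these genes. The exception was Cox5a, which scattered within its groups: 611, 529 and 530 RPKM at day 7, 527, 544 and 69.4 at day 14, and 65.7, 242 and 437 in sham bound RNA, and it was not called at any day (SE 0.61).

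In complex III, the 5 small subunits Uqcr10, Uqcr11, Uqcrb, Uqcrh and Uqcrq rose at day 7 and again at day 14. Uqcrq had 836, 817 and 672 RPKM at day 7, against 186, 211 and 342 in sham bound RNA (1.70 ± 0.38, limma adjusted p = 0.00407), and Uqcrh, the hinge protein, had 510, 551 and 438 against 155, 167 and 253 (1.41 ± 0.34, limma adjusted p = 0.00588). Neither gene had overlapping groups, which adds no support, since both were picked for being called higher. The Rieske iron-sulfur protein Uqcrfs1, of intermediate length, was called higher at day 14 only (0.88 ± 0.26, limma adjusted p = 0.0311), with 0.70 ± 0.26 at day 7, and the difference between the 2 days was not called. Its day 14 call was lost without sham bound replicate 1 or 2 or day 14 replicate 1 or 2. Complex III thus held 5 members higher and 2 lower at day 7.

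In complex I the calls differed between core and accessory subunits. Role was not tested apart from coding length, which ran alongside the folds. Of its 7 core subunits, none rose at any day against sham and 3 fell at day 2 (Ndufs1, Ndufv1 and Ndufs3). Of 28 accessory subunits, 18 rose and 2 fell at day 7, and 15 rose and 1 fell at day 14. Ndufa1 had 1974, 1843 and 1632 RPKM at day 7, against 441, 505 and 704 in sham bound RNA (1.75 ± 0.38, limma adjusted p = 0.00322). Ndufb6 had 411, 380 and 393 RPKM, against 132, 104 and 200 (1.49 ± 0.32, limma adjusted p = 0.00301). Ndufs4, an accessory subunit whose loss causes Leigh syndrome in humans, had 163, 165 and 164 RPKM, against 60.6, 64.5 and 100 (1.16 ± 0.25, limma adjusted p = 0.00285). Ndufv3 rose by 1.32 ± 0.31 although its annotated principal transcript has 1407 coding bases, being the only member over 900 coding bases called higher at day 7. Several short members have processed copies elsewhere in the mouse genome, and the labels do not say how reads shared with such copies were counted. The very low values of Ndufb2, Ndufb4, Cox7c, Atp5l, Atp5g1 and Atp5g2 beside the other subunits of their complexes are therefore uncertain, with Cox7c at 7.52, 7.44 and 5.83 RPKM at day 7 and 2.08, 2.59 and 4.55 in sham bound RNA.

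Complex II, whose 4 subunits are all nuclear-encoded, moved as Sdha alone at day 7 and day 14. Sdhb, the iron-sulfur subunit, was 305, 206 and 261 RPKM at day 2, against 425, 484 and 402 in sham bound RNA (-0.78 ± 0.24, limma adjusted p = 0.0287), and was not called at day 7 (-0.23 ± 0.24) or day 14 (-0.02 ± 0.24). The membrane anchors Sdhc and Sdhd had log2 folds of 0.18 ± 0.19 and -0.10 ± 0.21 at day 7. The Sdhb call at day 2 was lost without sham bound replicate 1 or 2 or day 2 replicate 2 or 3.

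Of the 5 tested members known as restricted isoforms, Cox7a1 was the most abundant and the others reached at most 47.2 RPKM in any library (Cox6b2, day 2 unbound replicate 1). Cox6a2 and Cox7a1 are the heart and muscle forms of their subunits, Cox6b2 is a testis form, and Cox4i2 and Ndufa4l2 are known as hypoxia-responsive forms. Cox6b2 had 19.7, 18.8 and 36.1 RPKM at day 2, against 5.98, 5.91 and 12 in sham bound RNA (1.60 ± 0.32, limma adjusted p = 0.00145), and remained called at day 7 (1.43 ± 0.32) and day 14 (1.14 ± 0.32). Its widely expressed counterpart Cox6b1 had 654, 1103 and 2252 RPKM at day 2 and 614, 595 and 1249 in sham bound RNA and was not called at that day (0.61 ± 0.39). Cox6a2 had 3.43, 6.95 and 10.8 RPKM at day 2, against 1.52, 1.44 and 1.48 (1.8 ± 0.57, limma adjusted p = 0.0298). Cox6a2 and Cox6b2 were the only members called higher at day 2, and the Cox6a2 call was lost without sham bound replicate 1 or 2 or day 2 replicate 2 or 3. Cox7a1 had 119, 131 and 96.2 RPKM at day 7, against 36.9, 53.3 and 170 in sham bound RNA, with overlapping groups and no call against sham at any day in bound RNA. Cox4i2 and Ndufa4l2 were not called at any day in bound RNA, with values of 0.387 to 5.87 and 2.5 to 15.6 RPKM across bound libraries. Among the genes that were not tested, Cox8c was listed at 0 in all 24 libraries, Cox8b reached 7.62 RPKM in 1 sham unbound library and Cox7b2 4.64 RPKM in 1 sham bound library.

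**Figure D3:**
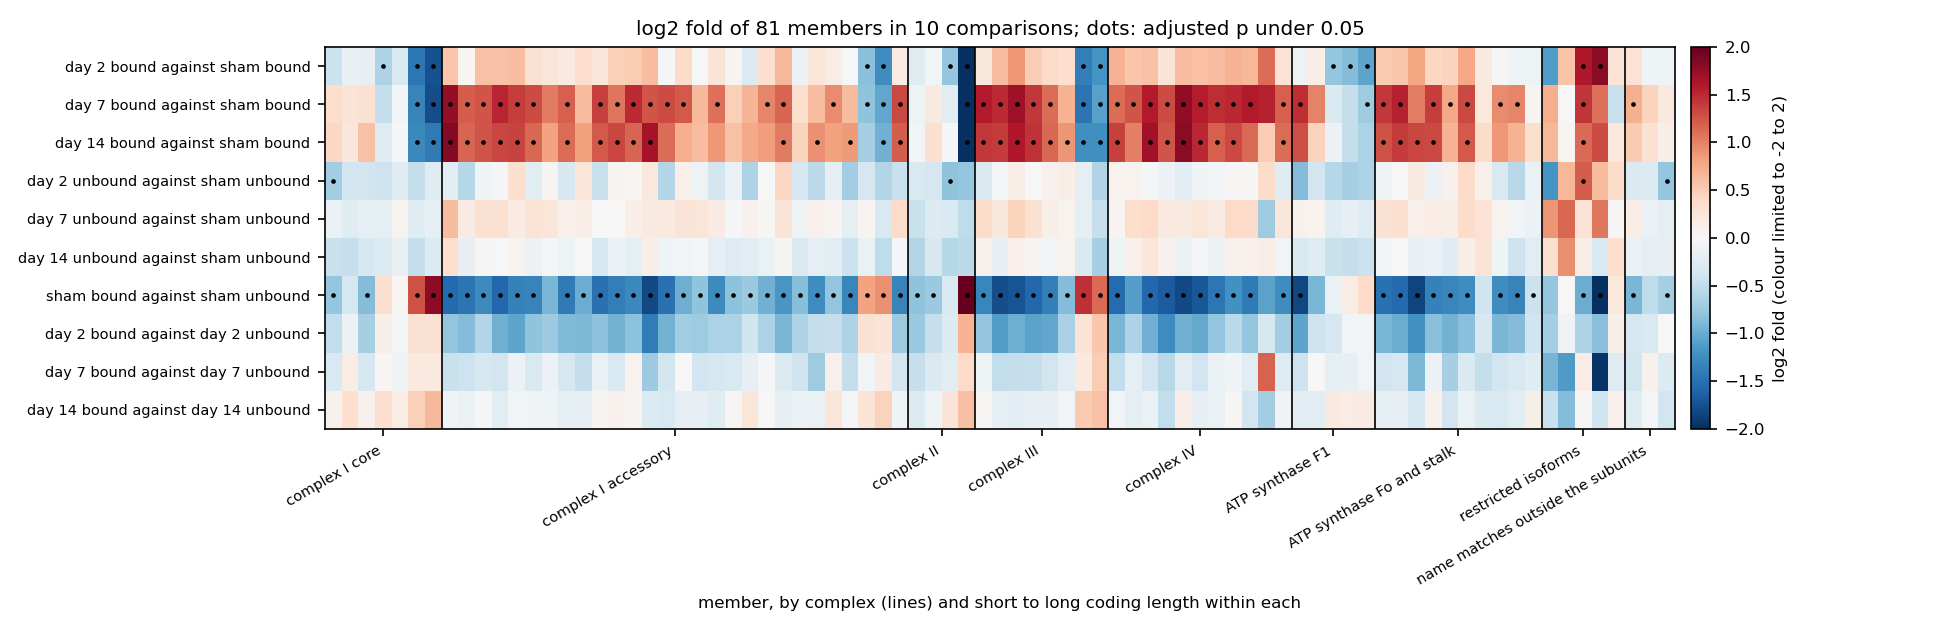
Log2 folds of the 81 tested members (columns, by complex and from short to long coding sequence) in 10 comparisons (rows), with dots where the adjusted p is under 0.05. The bound days against sham and sham bound against sham unbound carry most of the calls and opposite colours, and within most complexes the long members on the right differ in sign from the short ones.

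Coding length ran alongside the folds. Across the 81 members, Spearman's rho between coding length and log2 fold in bound RNA was -0.69 at day 2, -0.78 at day 7 and -0.80 at day 14 against sham, beside -0.19, -0.36 and -0.32 across 12422 tested genes with a coding length. These are descriptions across genes measured in the same libraries. In classes set after the values were seen, the 22 tested members of up to 300 coding bases had a median log2 fold of 1.45 at day 7, against 0.83 for all 337 genes of that class, and the 37 members of 301 to 600 bases had 1.04 against 0.65. The 11 members of 601 to 900 bases had 0.25 against 0.33, and the 11 over 900 bases had -1.04 against -0.02 for 8731 genes. The difference between members and other genes of their length class was not tested.

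**Figure D4:**
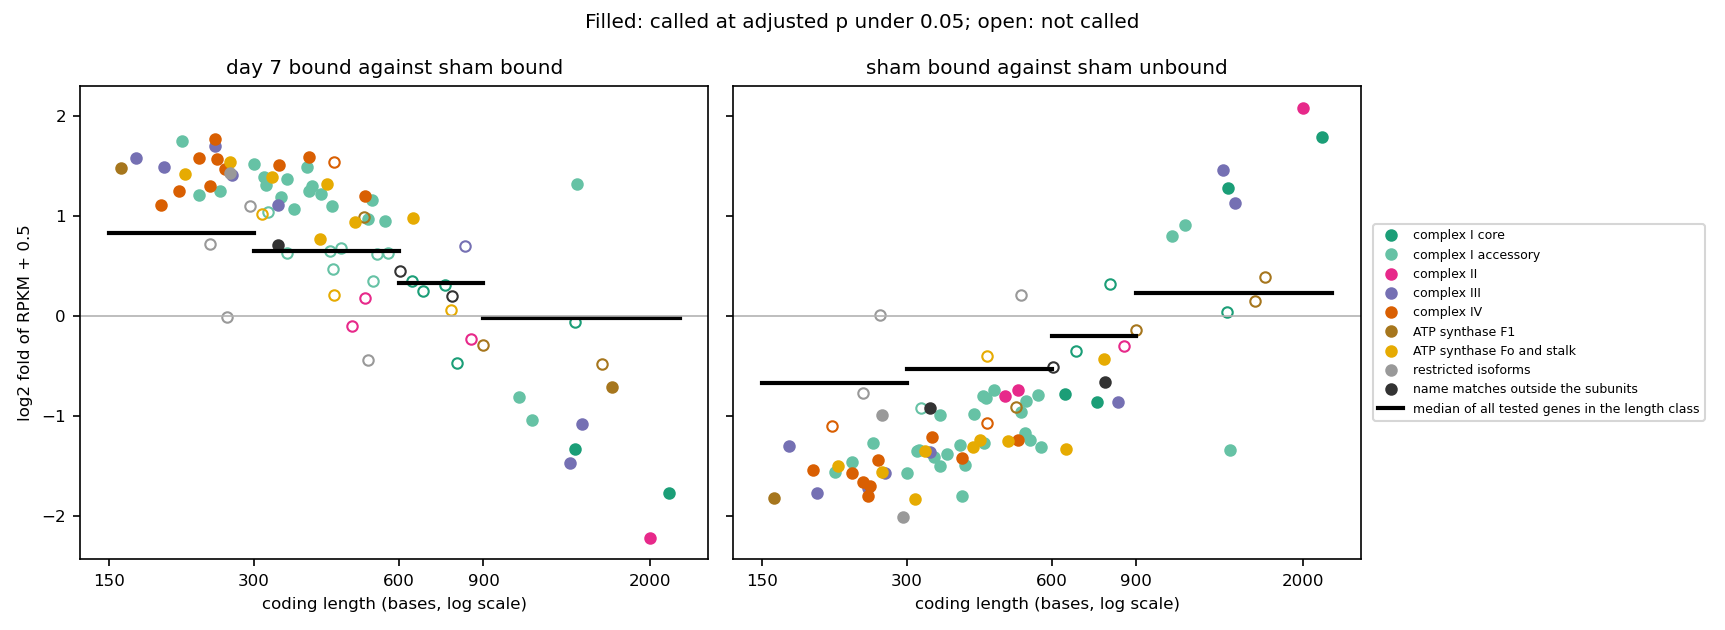
Log2 fold of RPKM + 0.5 (vertical) against coding length in bases (log scale) for the 81 tested members, coloured by complex, filled where called, with black bars at the median of all tested genes of each length class. The day 7 folds slope down from short to long members and the sham fraction folds slope up, with Ndufv3 the point off the slope at 1407 bases.

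Each library's trend with coding length was then removed across all genes, an alternative chosen after seeing the data. Most rises were no longer called, while the 6 members lower at all 3 days kept their day 7 calls. At day 7, 9 of 81 members were higher and 10 lower, shares close to those of all genes (10.2% higher and 12.3% lower). The higher ones were Ndufv3 (1.25 on the corrected log2 scale), Ndufa4 (0.87), Uqcrq (0.80), Ndufa1 (0.79), Ndufb6 (0.75), Cox6a1 (0.73), Atp5j2 (0.67), Atp5j (0.59) and Ndufs4 (0.57). The lower ones included Sdha (-2.20), Ndufs1 (-1.73), Uqcrc2 (-1.54), Ndufv1 (-1.40), Ndufa9 (-1.19) and Uqcrc1 (-1.14), close to their uncorrected folds, as well as Ndufs3 (-0.80) and Sdhd (-0.73), which had not been called. At day 14 the correction gave 10 higher and 7 lower (5.45% and 7.91% of genes), and at day 2, 1 higher and 16 lower (11.6% and 12.7%). With annotated exonic length in place of coding length, day 7 gave 21 higher and 10 lower (10.4% and 11.3% of genes) and day 14 gave 12 and 7 (5.36% and 7.67%). Rescaling the libraries by median ratios took the median of all genes at day 7 to -0.02 and left 32 members higher and 9 lower, and at day 14 it left 20 higher and 7 lower.

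The same contrast between short and long members separated single libraries. The median log2 level of members up to 600 coding bases minus that of members over 900 was taken in each library. It was -2.53, -2.27 and -1.04 in sham bound RNA, -1.57, -0.03 and 1.04 at day 2, 0.54, 0.51 and 0.74 at day 7, and 0.79, 0.89 and -0.52 at day 14. In the 12 unbound libraries it lay between 0.66 and 1.25. Day 2 libraries thus ran the whole span between sham bound and unbound values, and day 14 replicate 3 and sham bound replicate 3 stood off from their groups. The share of all RPKM held by the members was 6.72% ± 0.637 (SD, n = 3) in sham bound RNA, 6.40% ± 1.54 at day 2, 9.06% ± 0.577 at day 7 and 9.18% ± 2.5 at day 14, beside group means of 8.28% to 10.1% in unbound RNA. The RPKM total of a library, which falls when reads lie in longer genes, was 355825 to 398894 in sham bound and 495850 to 514299 in sham unbound libraries.

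Between injured time points, the bound fraction changed less. At day 7 against day 2, 9 members were higher and 0 lower (7.09% of all genes were called, 3.56% higher and 3.53% lower), with a member median of 0.64 beside -0.04 for all genes. They were Cox7a1, with 119, 131 and 96.2 RPKM at day 7 against 20.3, 27.4 and 57.6 at day 2 (1.83 ± 0.41, limma adjusted p = 0.00991), and Atp5e, Ndufa6, Ndufv3, Ndufa4, Atp5j, Ndufb11, Cox4i1 and Ndufs8, with log2 folds of 0.77 to 1.59. This count rested on single libraries. It was 43 without day 2 replicate 3, and 1 without day 2 replicate 1, day 2 replicate 2 or any of the 3 day 7 replicates. With the replicate number as a block it was 3. Day 2 and day 7 bound libraries of the same number did not deviate together, with correlations of -0.027, -0.036 and -0.098. At day 14 against day 7, limma called 0 members and 0.0% of all genes, with 0 members also at an unadjusted p under 0.05.

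In unbound RNA, which stands for the whole kidney, 4 members were called at day 2 and none later. At day 2, Cox6b2 was higher and Ndufs8, Sdhb and Atp5sl were lower (14.8% of all genes were called, 9.76% higher and 5.04% lower), and the median log2 fold was -0.19 beside 0.20 for all genes. Cox6b2 had 47.2, 30.8 and 33.5 RPKM at day 2, against 14.5, 16.4 and 15.7 in sham unbound RNA (1.21 ± 0.32, limma adjusted p = 0.0130). Sdhb had 410, 255 and 278 RPKM, against 469, 512 and 638 (-0.80 ± 0.24, limma adjusted p = 0.0307), and Ndufs8 had 612, 418 and 374, against 712, 667 and 869 (-0.70 ± 0.23, limma adjusted p = 0.0442). Without sham unbound replicate 2 or 3 the calls were 1 higher and 1 lower, and without day 2 unbound replicate 2 or 3 they were 1 higher and 0 lower. The day 2 calls came to 1 higher and 11 lower with only the 6 libraries compared, and 1 and 6 with median-ratio rescaling, without the share of all genes. They came to 1 and 9 with the coding length trend removed, where 9.29% of all genes were higher and 8.79% lower. With the exonic length trend removed they came to 1 and 7, where 8.36% of all genes were higher and 7.9% lower. At day 7 with only the 6 libraries compared, 2 members were called. At day 7 and day 14 limma called 0 members in either direction (at day 7 1.09% of all genes were called, 0.911% higher and 0.182% lower, and at day 14 1.23%, 0.984% higher and 0.248% lower), with 2 and 4 members at an unadjusted p under 0.05. Sdha stood at 142, 155 and 138 RPKM at day 7 in unbound RNA, against 183, 178 and 269 in sham.

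The comparison of fractions within sham gave the mirror image of the bound time course, with which it shares the sham bound libraries. Of 81 members, 7 were higher and 58 lower in sham bound than in sham unbound RNA (27.6% of all genes were called, 14.6% higher and 12.9% lower), with a median log2 fold of -1.17 beside 0.01 for all genes. The 7 were Sdha, Ndufs1, Uqcrc2, Ndufv1, Uqcrc1, Ndufa9 and Ndufa10. Sdha stood at 988, 897 and 775 RPKM in sham bound RNA, against 183, 178 and 269 in sham unbound RNA (2.09 ± 0.38, limma adjusted p = 0.000524). Ndufa4 stood at 954, 888 and 1218 RPKM, against 3626, 3343 and 3618 (-1.8 ± 0.34, limma adjusted p = 0.000804). Spearman's rho with coding length was 0.77 across members and 0.47 across the 12422 genes. With the coding length trend removed, the same 7 members were higher and 27 lower (13.1% and 11.4% of genes).

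In injured kidneys the fractions lay closer together. Bound against unbound, limma called 0 members at day 2, day 7 or day 14, with 43, 7 and 1 members at an unadjusted p under 0.05 (17.7%, 16.4% and 10.5% of all genes) and medians of -0.69, -0.29 and -0.09. Of all genes, 1.68% were called at day 2 (1.17% higher and 0.503% lower), 2.35% at day 7 (1.03% higher and 1.32% lower) and 0.816% at day 14 (0.343% higher and 0.474% lower). The labels describe both fractions as parts of 1 homogenate, and bound and unbound libraries of the same number deviated together, so the fit with the mouse as a block is given too. It called 19 members lower at day 2, 3 lower at day 7 (Atp5g1, Cox6a2 and Ndufa4l2) and 0 at day 14, with none higher, where 5.24% of all genes were higher and 4.26% lower at day 2, and 4.28% higher and 7.11% lower at day 7. The 19 included Ndufb4 (-1.4), Cox7b (-1.26), Atp5l (-1.21), Uqcrh (-1.07), Uqcrb (-1.04) and Sdhd (-0.75). At day 2 without bound replicate 3 the fit without a block had 1 higher and 40 lower, and at day 7 without unbound replicate 1 it had 1 lower. With only the 6 libraries compared, day 7 had 3 higher and 15 lower. The share of all genes is not given for these refits.

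Whether the change from sham differed between bound and unbound RNA was tested as an interaction. Limma called 0 members at day 2, day 7 or day 14 without a block, with 6, 35 and 54 members at an unadjusted p under 0.05 (5.52%, 16.9% and 16.5% of all genes). Medians were 0.39, 0.90 and 0.99, beside -0.01, -0.09 and -0.12 for all genes. Of all genes, 0.0% were called at day 2, 0.146% at day 7 (0.0583% higher and 0.0875% lower) and 0.197% at day 14 (0.0875% higher and 0.109% lower). With the mouse as a block, the interaction was called for 3 members at day 7: the change was higher in bound than in unbound RNA for Ndufa4 (1.59) and lower for Sdha (-1.71) and Ndufs1 (-1.59), as log2 differences. At day 14, the change was higher in bound RNA for 10 members and lower for none. With the block, 2.43% of all genes were higher and 2.83% lower at day 7, and 3.4% higher and 2.89% lower at day 14. The day 14 fit without a block had 42 members higher and 1 lower when day 14 bound replicate 3 was left out, and 2 higher without sham bound replicate 3. At day 2 it had 4 lower without day 2 bound replicate 1. With only the groups compared, the day 7 interaction without a block had 19 higher and 4 lower.

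Neighbouring pathways were read from lists chosen by function, whose members also differ in length. Of 14 tested citric acid cycle genes, which feed the chain with NADH and succinate, 10 fell in bound RNA at day 2, 10 at day 7 and 7 at day 14, and none rose, with a median log2 fold of -0.86 at day 7, when 71.4% of the list and 7.55% of all genes were lower. Ogdh, of the 2-oxoglutarate dehydrogenase complex, fell by 1.83 ± 0.39 on the log2 scale at day 7 (limma adjusted p = 0.00275), Dld by 1.53 ± 0.24 (limma adjusted p = 0.000243) and Suclg1 by 1.4 ± 0.38 (limma adjusted p = 0.0119). Of 43 tested assembly factors, 15 rose (34.9%, against 15.2% of all genes) and 4 fell (9.3%, against 7.55%) at day 7, among them Pet100 (1.37 ± 0.32) and Uqcc3 (1.32 ± 0.26) upward and Acad9 (-0.71 ± 0.23) and Ndufaf7 (-1.01 ± 0.24) downward. Of the 7 tested electron carriers and small partners outside the name rule, Atpif1, the inhibitor of ATP synthase, rose by 2.12 ± 0.34 and Etfdh, which passes electrons from fatty acid oxidation to ubiquinone, fell by 1.16 ± 0.24 at day 7.

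Among 17 regulators of mitochondrial genes, 1 rose (5.88%, against 15.2% of all genes) and 5 fell (29.4%, against 7.55%) at day 7. Ppargc1a, the coactivator that drives mitochondrial biogenesis, had 9.01, 12.4 and 9.54 RPKM in day 7 bound RNA, against 30.9, 40.7 and 21.4 in sham bound RNA (-1.51 ± 0.27, limma adjusted p = 0.000852). Esrra, its nuclear receptor partner, had 24.9, 27.5 and 17.7 against 21.6, 32.5 and 11.6 and was not called. Of 78 tested cytosolic ribosomal protein genes, 55 rose at day 2, 67 at day 7 and 52 at day 14 in bound RNA. These were 70.5%, 85.9% and 66.7% of the list, against 13.3%, 15.2% and 8.71% of all genes. In sham bound against sham unbound RNA, 64 were lower (82.1%, against 12.9% of all genes). At day 2 no structural subunit of complexes I to IV or ATP synthase other than the isoforms Cox6a2 and Cox6b2 was called higher. A positive fold at day 2 was seen in 53 of 81 members, beside 8265 of all 13721 tested genes. Without day 2 bound replicate 1, however, 17 members were called higher, a fit for which the share of all genes is not given. Of 73 tested mitochondrial ribosomal protein genes, 41 rose (56.2%, against 15.2% of all genes) and 4 fell (5.48%, against 7.55%) at day 7.

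The mitochondrial DNA-encoded subunits behaved differently. Of 13, 7 passed the filter, and mt-Co2, mt-Co3, mt-Atp6, mt-Atp8, mt-Nd3 and mt-Nd4l did not, being at 0 in most bound libraries, with the highest value 4.74 RPKM for mt-Nd3 in day 2 unbound replicate 3. None of the 7 was called against sham in bound RNA, with a median of -0.45 at day 7. All 7 were lower in bound than in unbound RNA in sham, at day 7 and at day 14, with medians of -2.26, -2.93 and -2.65, and 6 of 7 at day 2. The catalytic subunit mt-Co1 had 408, 413 and 218 RPKM in sham bound RNA, against 1185, 1355 and 1106 in sham unbound RNA, in a purification that pulls down cytosolic ribosomes.

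Promoter letters were searched because many members moved together. RefSeq promoters (GRCm38.p6, 250 bases before to 50 after the start) were matched for 69 of the 84 members. The NRF1 core GCATGCG, on either strand, was found in 15.9% of the members' promoters, 6.92% of those of 10240 tested genes and 4.01% of all 27025 genes in the table. The ETS core CCGGAAG was found in 23.2%, 19.4% and 9.93%, the estrogen-related receptor core AAGGTCA in 11.6%, 4.18% and 5.38%, the YY1 core AAGATGG in 17.4%, 8.31% and 7.28%, and the GC box GGGCGGG in 34.8%, 50.6% and 27.9%. Among the 38 members higher at day 7 with a promoter, 6 held the NRF1 core and 11 the ETS core, and among the 5 lower ones, 1 and 0. Below are the promoters of 2 members that rose, Uqcr11 (chr10:80406772-80407071, minus strand) and Atp5k (chr5:108434350-108434649, minus strand), and of Uqcrc1 (chr9:108936398-108936697, plus strand), which fell, with matches in capitals. In each, the 8-letter capital run is GCATGCG read on both strands with overlap, so the core stands in promoters of either direction.
Uqcr11 promoter: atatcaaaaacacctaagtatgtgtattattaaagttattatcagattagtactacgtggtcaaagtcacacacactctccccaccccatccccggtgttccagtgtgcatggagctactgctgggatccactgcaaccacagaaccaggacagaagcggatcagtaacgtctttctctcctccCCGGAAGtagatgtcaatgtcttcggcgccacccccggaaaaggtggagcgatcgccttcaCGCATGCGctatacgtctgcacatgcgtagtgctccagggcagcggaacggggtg
Atp5k promoter: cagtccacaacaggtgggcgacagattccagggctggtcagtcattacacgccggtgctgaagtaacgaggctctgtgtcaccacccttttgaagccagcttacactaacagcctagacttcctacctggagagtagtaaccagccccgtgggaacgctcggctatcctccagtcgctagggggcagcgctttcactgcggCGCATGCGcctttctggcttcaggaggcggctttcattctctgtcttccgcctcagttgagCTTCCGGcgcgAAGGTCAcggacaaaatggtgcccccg
Uqcrc1 promoter: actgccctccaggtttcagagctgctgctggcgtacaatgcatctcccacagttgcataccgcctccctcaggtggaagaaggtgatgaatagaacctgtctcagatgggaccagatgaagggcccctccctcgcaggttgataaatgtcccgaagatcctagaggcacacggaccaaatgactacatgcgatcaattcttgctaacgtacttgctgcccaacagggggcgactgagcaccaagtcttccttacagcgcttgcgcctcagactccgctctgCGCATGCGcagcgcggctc
A match is only a run of letters and does not show binding.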

How the data were processed

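Bound and unbound kidney RNA was measured by RNA-seq in 24 libraries. Per the submitters' processing notes, the authors used STAR 2.0.4b, featureCounts 1.4.5 of Subread, and edgeR, and deposited RPKM. Genome build: not given in the sources used here. Of 41831 lines, 1081 repeats of a gene identifier were dropped. RPKM are not counts, so limma 3.58.1 in R 4.3.3 was run on log2 (RPKM + 0.5) with 1 mean per group (8 groups, 24 libraries), an abundance trend and no block, keeping genes that reached 1 RPKM in 3 or more libraries. P-values were adjusted by Benjamini-Hochberg over 13721 genes within each of 15 comparisons. The fold scale understates changes of low genes. Of values up to 50 reads, 73.8% to 78.1% came to whole reads within 0.02 at the inferred depths, where 4% would by chance, so depth is approximate. The fit was tested on simulated data.

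Members and lists were chosen with earlier results of these data known. Genes named are, per complex and direction, up to 4 called with the smallest p and the extremes, all complex II members, catalytic subunits, isoforms, members under the filter and, per neighbouring list, up to 4 called genes per direction; genes shown with sequences or named for a low value were chosen after their values were seen. Coding lengths come from GENCODE M21 for 12422 tested genes (90.5%). Bound and unbound libraries of the same number deviated together (correlations of 0.268 to 0.670 in all 12 pairs), so the block is the mouse for fractions and interactions, and the replicate number for times. Nothing beyond biological replicates says how replicates were kept apart. Alternatives were other pseudocounts, filters, scalings, length corrections, variance models, the block and leaving out each library. For fits that left out a library or used only the groups compared, the share of all genes called is not given. Some results of single genes are not reported here.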

Additional observations from a re-analysis of the deposited data

Results flagged for a closer look

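The change from sham differed between bound and unbound RNA for 12 members when the mouse was a block, by limma's interaction test, and for none of them in the fit of all 24 libraries without the block. Without a block, 23 members were called at day 7 with only the groups compared, and 43 at day 14 without day 14 bound replicate 3. For these 2 fits the share of all genes called is not given. With the block, 3 of 81 members were called at day 7, where 2.43% of all genes were higher and 2.83% lower, so the members' share lay below that of all genes. At day 14, 10 of 81 were called, where 3.4% of all genes were higher and 2.89% lower. At day 14 the bound change exceeded the unbound one, as a log2 difference, by 1.93 for Ndufa4, 1.61 for Cox6a2, 1.55 for Ndufs6, 1.48 for Atp5l, 1.48 for Cox7c, 1.46 for Ndufc2, 1.45 for Atp5j, 1.43 for Cox6c, 1.28 for Ndufb5 and 0.94 for Atp5g1. At day 7 the difference was 1.59 for Ndufa4, -1.71 for Sdha and -1.59 for Ndufs1. Bound libraries of sham kidneys enter each of these differences, and Havcr1 stood at 1.51, 1.49 and 5.61 RPKM in them. In sham unbound replicate 3 it reached 24.1 RPKM.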

How the results depend on the processing

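Of 273 counts of called members under other settings, 217 stayed within 1.5 times the reported count and 56 did not. Leaving out 1 library gave, against sham in bound RNA, 7 to 29 calls at day 2, 23 to 63 at day 7 and 11 to 59 at day 14, and 1 to 4 at day 2 in unbound RNA. It gave 1 to 43 for day 7 against day 2, 45 to 70 for sham bound against sham unbound, 0 to 41 and 0 to 1 for bound against unbound at day 2 and day 7, and 0 to 4 and 0 to 43 for the interactions of day 2 and day 14. With the coding length trend removed, calls came to 19 at day 7 and 17 at day 14 in bound RNA, 10 at day 2 in unbound RNA and 34 between sham fractions. With the exonic length trend removed they came to 31, 19, 8 for the same 3 comparisons with sham, 4 for day 7 against day 2 and 1 for bound against unbound at day 2. With only the groups compared, they came to 0 at day 2 and 0 at day 14 in bound RNA, 12 at day 2 and 2 at day 7 in unbound RNA, 1 for day 7 against day 2, 18 between fractions at day 7 and 23 for the day 7 interaction. Median-ratio rescaling gave 27 at day 14 in bound RNA (74.1% higher, against 85.4%), 7 at day 2 in unbound RNA (14.3% higher, against 25.0%), 4 for day 7 against day 2 and 1 between fractions at day 2. Without a filter, calls were 21 at day 14 and 1 for day 7 against day 2, and a filter of 5 RPKM gave 2 between fractions at day 2. Quantile normalization gave 4 for day 7 against day 2 and 1 for the day 14 interaction. The replicate block gave 3 for day 7 against day 2, 19 and 3 between fractions at day 2 and day 7, and 3 and 10 for the interactions of day 7 and day 14. Of 360 results for named genes, 1 reversed: Cox7a2l at day 7 in bound RNA, at -0.08 with the coding length trend removed. The cause of these moves was not tested. Depth was inferred and the counts behind the RPKM were not used here, so counting error is not given.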
